A study of Vitis vinifera with 6 samples.

Results

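The genes described here were marked as well above background on every array of grapevine leaves overexpressing NAC61 and on no array of control leaves. There were 60 such genes among the 34369 features of the array, of which 29798 carry a grapevine locus identifier starting with VIT_ and 27640 lie outside 7 blocks of loci that the rule left out. A gene was taken as a member when Feature Extraction marked its spot as well above background on all 3 OX.NAC61 arrays and on none of the 3 control arrays, and when its mean scaled log2 signal was at least 2 higher in OX.NAC61. Scaled log2 signal is the log2 of the processed signal minus the 75th percentile of that array, so that a value of -5 lies 5 log2 units under the 75th percentile. The left-out blocks are the loci that start with VIT_16s0100g, VIT_18s0117g, VIT_18s0164g, VIT_10s0042g, VIT_16s0013g, VIT_05s0077g and VIT_18s0001g. Since the rule reads the same arrays and the same contrast as the values below, those values describe the members and test nothing.

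Leaf RNA of Vitis vinifera cv. Thompson Seedless was measured on one-colour Agilent arrays, with 3 plants that transiently overexpressed NAC61 (OX.NAC61) and 3 control plants, 1 array each. Plantlets grown in vitro were infiltrated with Agrobacterium tumefaciens C58C1, and young leaves were taken 7 days later, when plants were 6 weeks old. The OX.NAC61 plants received 35S:NAC61 in the pK7WG2 vector and the control plants received a non-coding sequence in the same vector, so that both groups met the bacterium, the vector and the vacuum infiltration. The 35S promoter is active in most plant cells, expression was transient and not stable, and the 3 OX.NAC61 plants were those with the highest NAC61 expression among the plants infiltrated. In such bulk leaf samples, fewer cells that express a gene and less RNA per cell cannot be told apart.

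NAC proteins are a plant family of transcription factors, known from studies of ripening, leaf senescence and responses to drought and pathogens. NAC61 has been studied in grape berries at late ripening and during drying after harvest. Infiltration with Agrobacterium is itself a biotic stimulus, which the control construct shares. A gene whose probe does not rise above background in control leaves may be silent there or expressed below the sensitivity of the array. The arrays do not tell these states apart.

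The NAC61 probe (VIT_08s0007g07640) gave scaled log2 signals of -1.15, -0.66 and -0.48 on the OX.NAC61 arrays, against -2.48, -2.21 and -2.44 on the control arrays. All 3 OX.NAC61 values lay above all control values, with means of -0.76 ± 0.35 in OX.NAC61 and -2.38 ± 0.14 in control (SD, n = 3 each) and a limma adjusted p of 0.0286. The plants were selected on this gene, so the difference checks the labels. Features annotated as photosystem or light-harvesting proteins served as leaf markers, and all 28 were well above background on all 6 arrays. Their median scaled log2 signal was 2.05, 1.67 and 1.36 on the OX.NAC61 arrays, against 2.80, 2.88 and 2.73 on the control arrays, and limma called 21 of the 28 lower in OX.NAC61 and 0 higher. Of these markers 22 were annotated in lists that the study chose on these same arrays, and among the other 6 limma called 0. The 75th percentile of processed signal was 1775, 2577 and 2188 on the OX.NAC61 arrays, against 1615, 1329 and 889 on the control arrays. All OX.NAC61 arrays were therefore brighter than all control arrays. Between 26557 and 28121 features were well above background on an OX.NAC61 array, against 24501 to 26884 on a control array. The lowest scaled log2 signal that counted as well above background was -7.69, -7.96 and -7.47 on the OX.NAC61 arrays, against -7.30, -6.62 and -6.22 on the control arrays. A weak signal was thus marked as detected at a lower scaled level on OX.NAC61 arrays, and the part of this difference in the membership was not tested.

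Detection on OX.NAC61 arrays alone was far more frequent than its mirror image. Without the limit on the difference, 258 VIT_ features outside the left-out blocks were well above background on every OX.NAC61 array without being so in any control, and 198 of these differed by less than 2. Detection on all control arrays and on no OX.NAC61 array was found for 2 such features. Across all VIT_ features outside the blocks, 1.17% differed by at least 2 in the higher direction, with or without detection in control, and among all features that passed the filter on dim signal 1.44% did. A further 255 VIT_ features reached that difference and were well above background on 1 or more control arrays as well as on all OX.NAC61 arrays.

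Members covered a wide span of signal on the OX.NAC61 arrays and a narrow one on the control arrays. Their median scaled log2 signal was -5.11, -5.58 and -5.07 on the OX.NAC61 arrays, against -8.49, -8.63 and -8.31 on the control arrays. The processed signal of member spots ran between 10.99 and 4723 on OX.NAC61 arrays, with a median of 54.9, against 2.05 to 16.7 on control arrays, with a median of 3.20. On the OX.NAC61 arrays 84 of the 180 member spots were under 50. On the control arrays 85 of the 180 spots passed the weaker flag of Feature Extraction for a positive signal that differs from background. All 3 control spots of 7 members passed that flag, and 10 members had none that did. Of the 180 control spots, 8 lay above the lowest level marked as well above background on their own array.

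**Figure D1:**
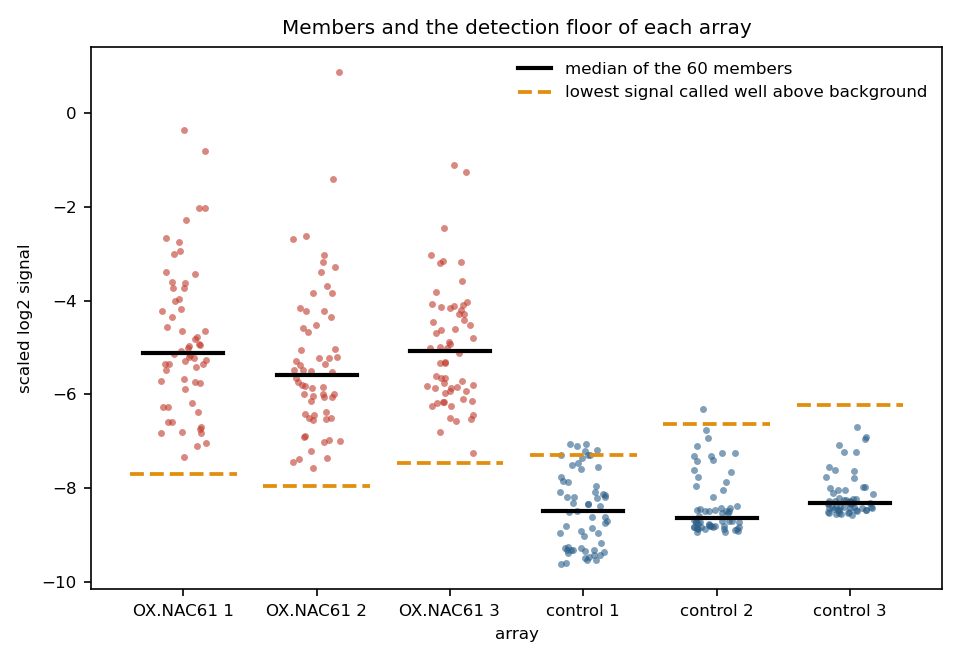
Scaled log2 signal of the 60 members on each array (points), with their median (black line) and the lowest signal marked as well above background on that array (dashed line), OX.NAC61 arrays on the left and control arrays on the right. Member medians lay between -5.58 and -5.07 on OX.NAC61 arrays and between -8.63 and -8.31 on control arrays, and the dashed line sat higher on control arrays.

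All 60 members had every OX.NAC61 value above every control value, where 9.83% of the features that passed the filter did, and the rule brings this about in large part. The gap between the lowest OX.NAC61 and the highest control value ran between 0.70 and 5.46 on the log2 scale, with a median of 1.69. All members passed the filter on dim features, which asks for 3 arrays well above background, through the OX.NAC61 arrays alone. Limma, fitted across 27052 features, called 57 of the 60 higher at an adjusted p below 0.1 and a fold above 1.5, where it called 6.84% of all features, 3.09% higher and 3.75% lower. Over all features limma called 836 higher and 1015 lower. Scaled to spike-in probes it called 628 higher and 53 lower, and all 60 members stayed higher. The median difference of all features was 0.19 with this scaling, against -0.06 with the 75th percentile. The 3 members that limma did not call were VIT_17s0000g04600, VIT_01s0010g01970 and VIT_18s0075g01090. With scan day as a block, 4 members were called, where 0.0481% of all features were, and without control replicate 2 there were 15, where 0.262% of all features were called. Under the normexp background correction with an offset of 50, 9 of the 60 were higher in OX.NAC61 and 0 were called.

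**Figure D2:**
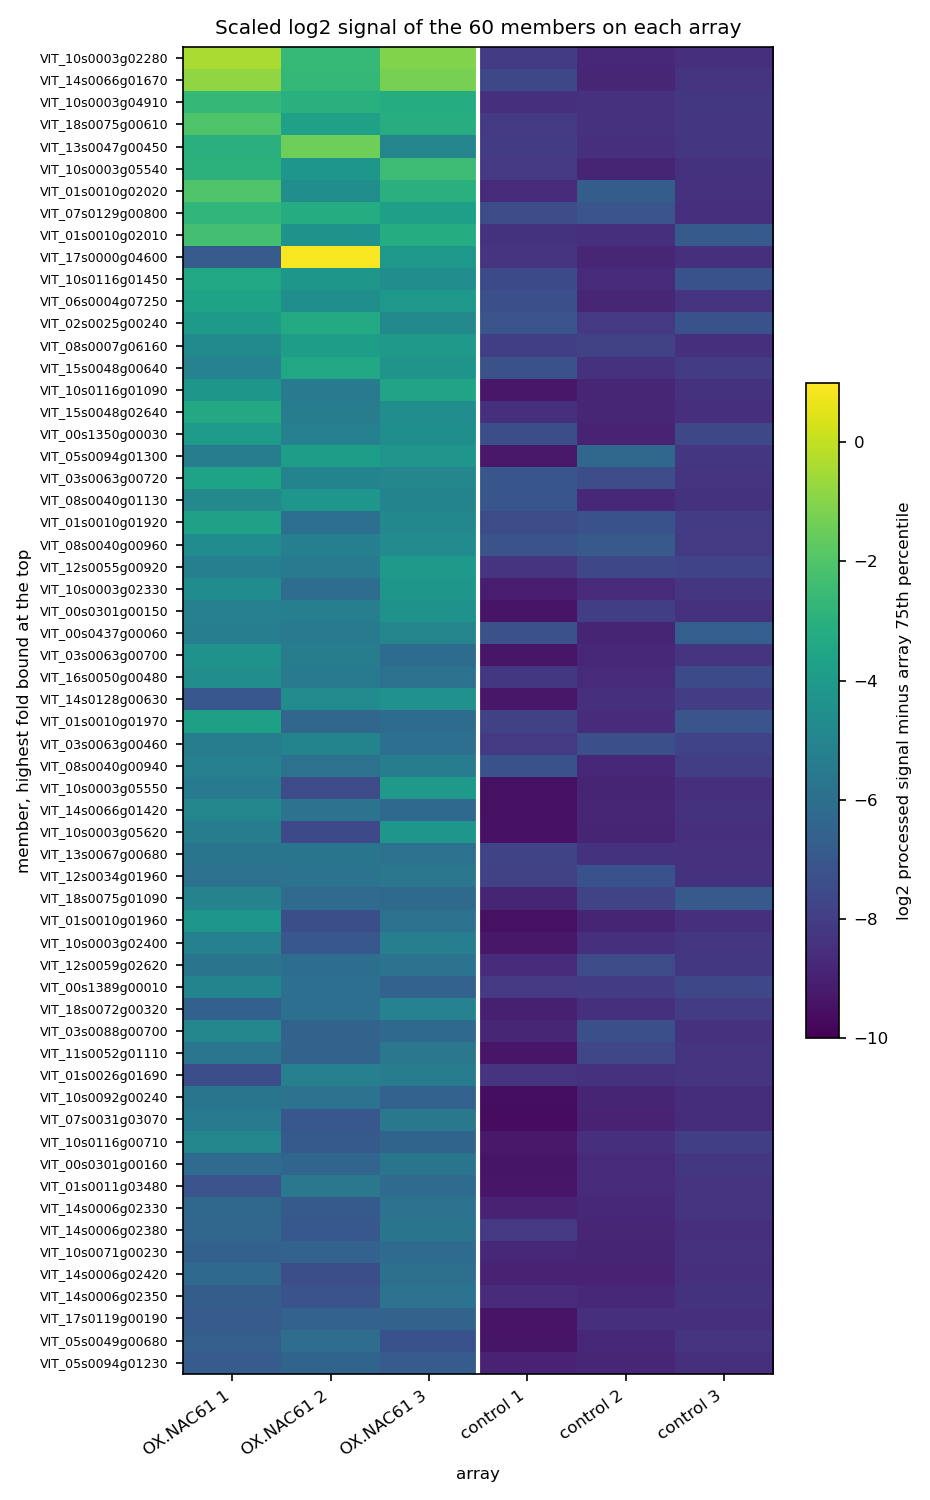
Scaled log2 signal (colour) of each of the 60 members (rows, by fold bound) on each of the 6 arrays (columns, OX.NAC61 on the left). The control columns stay dark in every row, while the OX.NAC61 columns differ from each other in many rows, most of all for VIT_17s0000g04600.

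As no control spot of these genes was marked as well above background, the fold change is given as a bound. For each control array the spot was raised to the weakest level that counted as detected on that array, where it lay under it, and the OX.NAC61 mean was set against the mean of these floors. The measured difference of the members ran between 2.01 and 7.06 on the log2 scale, with a median of 2.995, while the bound ran between 1.02-fold and 40.6-fold, with a median of 2.49-fold. The bound reached 2-fold for 36 members, 4-fold for 20, 8-fold for 10 and 16-fold for 2. It stayed under 1.5-fold for 9 members. For 26 members at least 1 OX.NAC61 array lay under the highest control floor, and for VIT_17s0119g00190 and VIT_05s0094g01230, named after their values were seen, all OX.NAC61 arrays did. At the 5th percentile of detected spots in place of the lowest one, the bound reached 2-fold for 23 members.

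**Figure D3:**
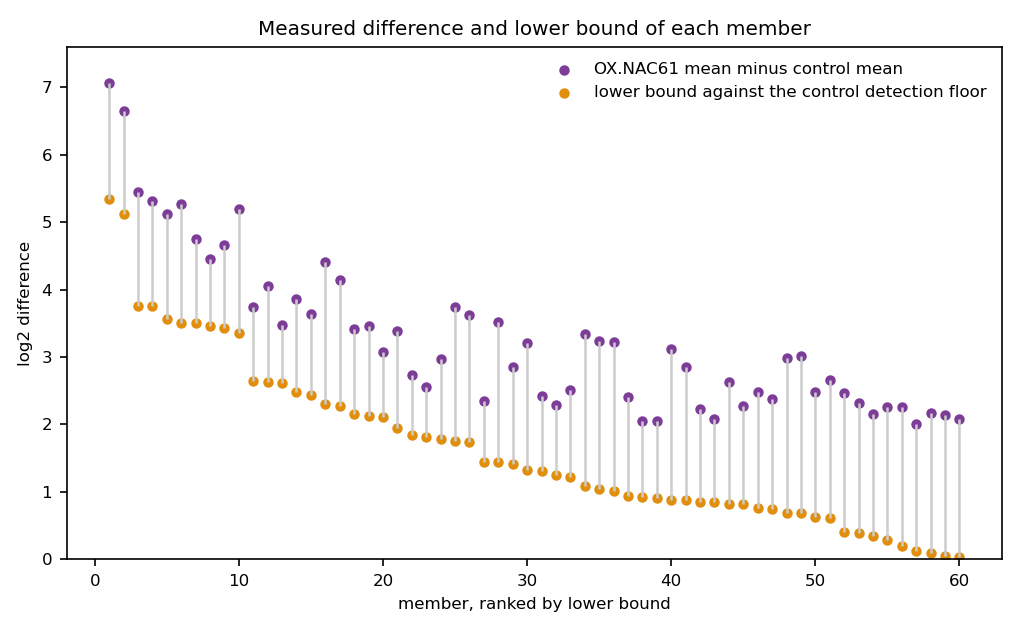
Log2 difference between the OX.NAC61 mean and the control mean (purple) and lower bound against the control detection floor (orange) for each member, ranked by bound. Measured differences stay above 2 by the rule, while bounds decline to almost 0, and 20 members have a bound of at least 4-fold.

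The member with the highest bound was VIT_10s0003g02280, annotated as SRG1, a senescence-related oxidoreductase. SRG1 was named in Arabidopsis for its expression in senescing organs and belongs to the dioxygenases that use iron and 2-oxoglutarate. Its scaled log2 signal was -0.38, -2.62 and -1.10 on the OX.NAC61 arrays, against -8.08, -8.74 and -8.45 on the control arrays. The means were -1.37 ± 1.15 in OX.NAC61 and -8.43 ± 0.33 in control (SD, n = 3 each), and its bound against the detection floor was 40.6-fold. With 1 array left out the bound was lowest when that was OX.NAC61 replicate 1 (28.8-fold) and highest when it was OX.NAC61 replicate 2 (62.8-fold). The next bound was that of VIT_14s0066g01670, which has no annotation here. It gave -0.82, -2.69 and -1.26 on the OX.NAC61 arrays, against -7.60, -8.81 and -8.30 on the control arrays, a bound of 34.8-fold. Both genes were brightest on OX.NAC61 replicate 1 and dimmest on OX.NAC61 replicate 2.

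VIT_10s0003g04910, annotated as a sinapyl alcohol dehydrogenase, had the third bound. Enzymes with this name reduce aldehydes to the alcohols from which lignin is built. It gave -2.66, -3.03 and -3.18 on the OX.NAC61 arrays, against -8.51, -8.45 and -8.24 on the control arrays. Its OX.NAC61 values lay within 0.53 of each other, the smallest range among the 10 members with the highest bounds, and its bound was 13.5-fold. VIT_18s0075g00610, without annotation, gave -2.04, -3.70 and -3.15 on the OX.NAC61 arrays, against -8.13, -8.43 and -8.27 on the control arrays, a bound of 13.5-fold. VIT_07s0129g00800, also without annotation, gave -2.75, -3.18 and -3.81 on the OX.NAC61 arrays, against -7.50, -7.09 and -8.52 on the control arrays, a bound of 11-fold. In these 3 genes each OX.NAC61 array stood at least 3 log2 units above each control array.

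For others among the 10 highest bounds 1 array decided the size. VIT_17s0000g04600 gave -6.81, 0.87 and -4.15 on the OX.NAC61 arrays, against -8.34, -8.80 and -8.52 on the control arrays. Its OX.NAC61 range of 7.68 was the largest of all members. The bound was 10.2-fold over all arrays, but 2.35-fold when OX.NAC61 replicate 2 was left out and 33.7-fold when OX.NAC61 replicate 1 was. VIT_13s0047g00450 gave -3.01, -1.41 and -5.01 on the OX.NAC61 arrays, against -8.07, -8.47 and -8.24 on the control arrays, again highest on OX.NAC61 replicate 2. Its bound of 11.9-fold became 6.49-fold without that array and 22.6-fold without OX.NAC61 replicate 3. Neither gene has an annotation here. The other 3 of the 10 highest bounds lie in the locus runs described next.

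Many members lay near each other in the genome, a property that the rule did not use apart from the blocks it left out. The number in a locus identifier follows the order of genes along a chromosome or scaffold, in steps of about 10. When members with the same prefix and numbers at most 100 apart were joined, 23 members (38.3%) fell into 8 runs, of which 4 had 3 or more members and together held 15. Of the 198 features with the same detection but a smaller difference, 28 (14.1%) fell into runs. These shares were not tested against each other, and the longer list has more chances to form runs. Chromosome 10 held 12 members (20.0%), against 3.23% of the VIT_ features, and 7 of these 12 start with VIT_10s0003g. Chromosomes 1 and 14 held 7 members each, and chromosomes 4, 9 and 19 held 0. Exact positions were not used here, as no genome matching the array was at hand.

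The run on chromosome 1 lay between VIT_01s0010g01920 and VIT_01s0010g02020 and held 5 members among 10 loci on the array. One of them, VIT_01s0010g01970, is PrxIII01b, annotated as an anionic peroxidase. Class III peroxidases of this kind are secreted and use hydrogen peroxide to oxidise phenolic compounds, among them lignin precursors. PrxIII01b gave -3.73, -6.37 and -6.13 on the OX.NAC61 arrays, against -7.84, -8.59 and -7.08 on the control arrays. It stood high on OX.NAC61 replicate 1 alone, with a bound of 2.46-fold over all arrays.

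The highest bounds of the run came at its end. VIT_01s0010g02010 gave -2.27, -4.34 and -3.21 on the OX.NAC61 arrays, against -8.37, -8.52 and -6.90 on the control arrays, a bound of 10.8-fold. VIT_01s0010g02020 gave -2.03, -4.59 and -3.02 on the OX.NAC61 arrays, against -8.70, -6.77 and -8.41 on the control arrays, a bound of 11.3-fold that became 7.50-fold when OX.NAC61 replicate 1 was left out and 18.2-fold when OX.NAC61 replicate 2 was. Neither overlapped its control values. VIT_01s0010g01920 gave -3.72, -6.00 and -4.88 in OX.NAC61 leaves and -7.46, -7.24 and -8.10 in control leaves. VIT_01s0010g01960 gave -4.22, -7.35 and -5.92 in OX.NAC61 leaves and -9.52, -8.87 and -8.46 in control leaves. All 5 members were highest on OX.NAC61 replicate 1 and lowest on OX.NAC61 replicate 2. Between the members lay further anionic peroxidase loci, named after their values were seen. VIT_01s0010g01950 (PrxIII01f) gave -4.12, -6.83 and -7.00 in OX.NAC61 leaves and -8.46, -6.90 and -8.36 in control leaves, just short of the difference that the rule asks for. VIT_01s0010g01980 was well above background on all 6 arrays and gave -3.43, -6.21 and -5.64 in OX.NAC61 leaves and -6.86, -6.03 and -6.01 in control leaves. Limma called neither, and the ranges of the groups overlapped in both.

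The run that begins with the SRG1 locus spanned VIT_10s0003g02280 to VIT_10s0003g02400, with 3 members among 12 loci. VIT_10s0003g02330 gave -4.65, -6.05 and -4.17 on the OX.NAC61 arrays, against -9.17, -8.69 and -8.25 on the control arrays. VIT_10s0003g02400 gave -5.17, -7.02 and -5.31 on the OX.NAC61 arrays, against -9.31, -8.45 and -8.27 on the control arrays. These differed in size from the SRG1 locus, with bounds of 3.37-fold and 1.84-fold, but all 3 were lowest on OX.NAC61 replicate 2. Of the 9 other loci in this span, 5 had a difference of at least 1, 1 was called higher, and 2 were not well above background on any array.

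The second run on chromosome 10 lay between VIT_10s0003g05540 and VIT_10s0003g05620. Here 2 of the 3 members are annotated as carbohydrate oxidases, enzymes that oxidise sugars and release hydrogen peroxide. VIT_10s0003g05550 gave -5.42, -7.45 and -4.03 on the OX.NAC61 arrays, against -9.52, -8.88 and -8.53 on the control arrays. VIT_10s0003g05620 gave -5.35, -7.56 and -4.20 on the OX.NAC61 arrays, against -9.47, -8.85 and -8.45 on the control arrays. Both were high on OX.NAC61 replicate 3 and weak on OX.NAC61 replicate 2, and the first of them has the third largest OX.NAC61 range of all members (3.42). The third member, VIT_10s0003g05540, has no annotation and gave -2.95, -4.23 and -2.46 on the OX.NAC61 arrays, against -8.18, -8.86 and -8.40 on the control arrays, a bound of 11.3-fold. A further carbohydrate oxidase locus within the span, VIT_10s0003g05580, named after its values were seen, was detected on all 6 arrays and was called higher, with -1.79, -3.55 and -1.07 in OX.NAC61 leaves and -5.56, -5.74 and -5.88 in control leaves. It had the same order of OX.NAC61 arrays as all 3 members.

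The run on chromosome 14, VIT_14s0006g02330 to VIT_14s0006g02420, held 4 members with low bounds. VIT_14s0006g02330 is annotated as germin-like protein 3. Germin-like proteins sit in the cell wall, and some produce hydrogen peroxide from superoxide. It gave -6.27, -6.88 and -5.84 on the OX.NAC61 arrays, against -8.90, -8.72 and -8.31 on the control arrays. VIT_14s0006g02380 gave -6.37, -6.98 and -5.75 in OX.NAC61 leaves and -8.18, -8.82 and -8.54 in control leaves. VIT_14s0006g02420 gave -6.26, -7.37 and -5.93 in OX.NAC61 leaves and -8.94, -8.90 and -8.50 in control leaves. The bounds of the 4 members ran between 1.09-fold and 1.31-fold, while their measured differences ran between 2.01 and 2.32 on the log2 scale. In each of them OX.NAC61 replicate 3 was highest and OX.NAC61 replicate 2 lowest. Of the 5 other loci in this span, 4 had a difference of at least 1 and 2 were called higher.

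**Figure D4:**
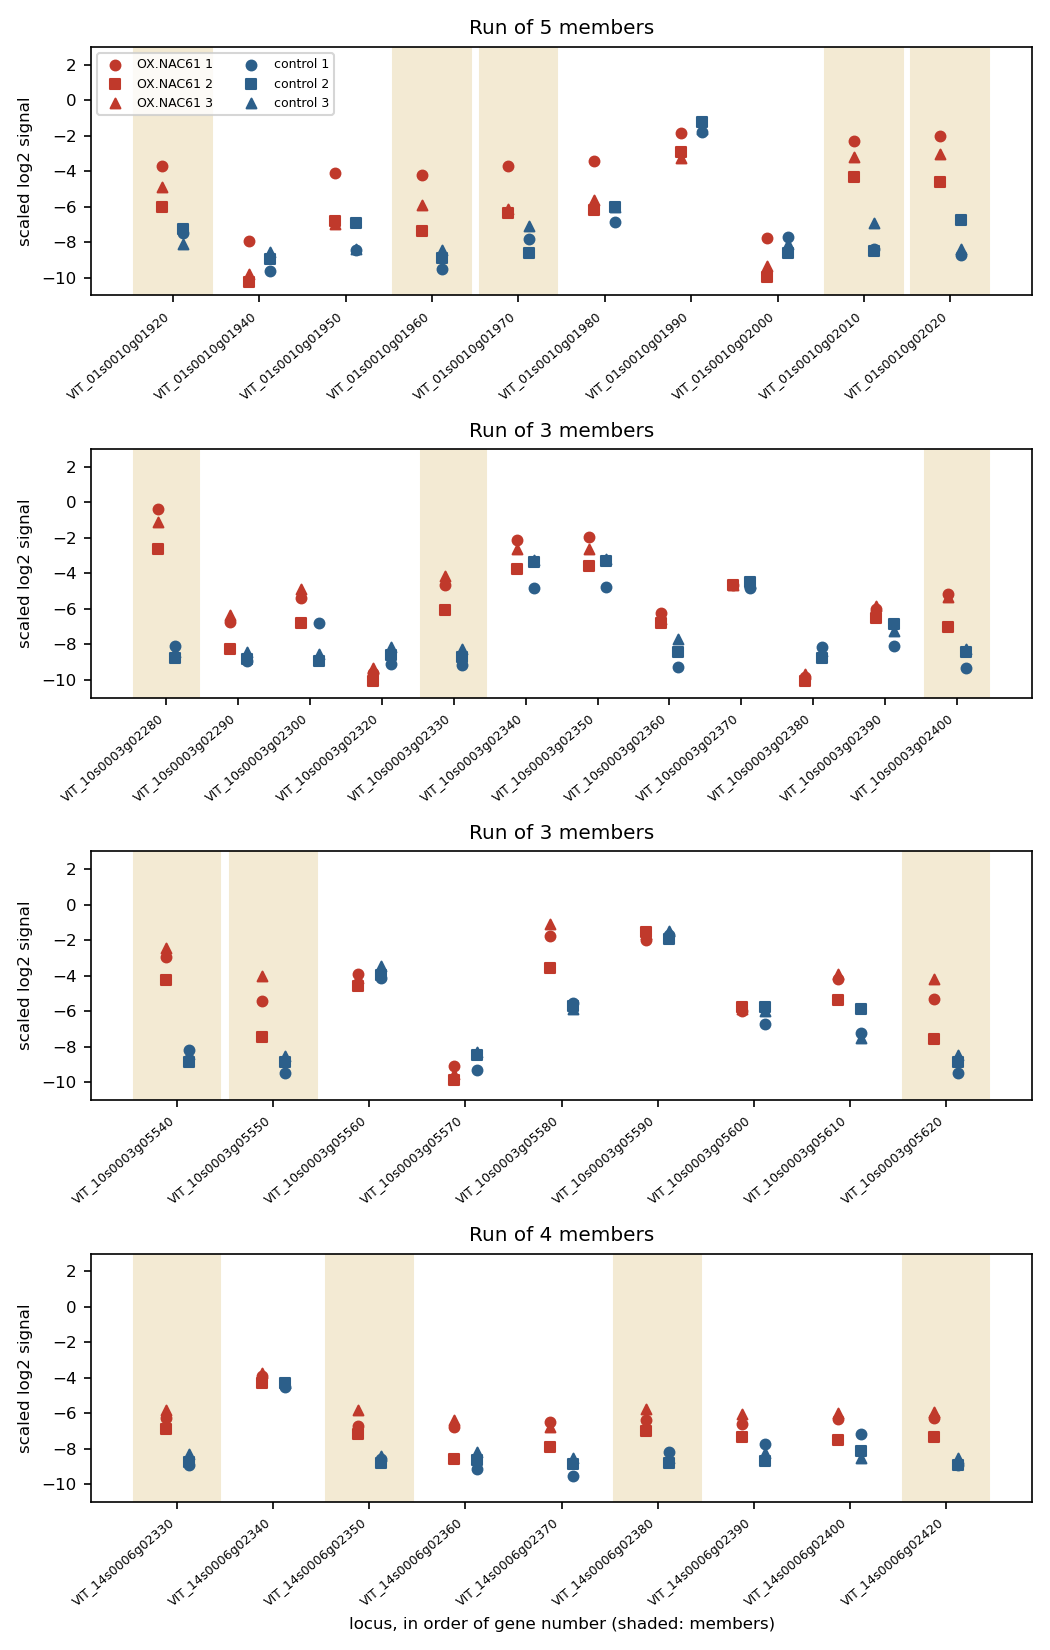
Scaled log2 signal on each array of all loci within the 4 runs of 3 or more members, in the order of their gene numbers, with members shaded, OX.NAC61 in red on the left and control in blue on the right of each locus. In all 15 shaded loci the square of OX.NAC61 replicate 2 is the lowest of the red points.

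The lowest OX.NAC61 array was shared within the runs of 3 or more, while the order of the other arrays was not always. All 15 members in runs of 3 or more were lowest on OX.NAC61 replicate 2, against 18 of the 45 other members. Of the 18 other loci within these runs that were well above background on all OX.NAC61 arrays, 13 were lowest on the same array and 5 were called higher. Probe sequences were not used here, so the part of cross-hybridisation between near copies in these runs was not tested.

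The loci near members were looked at as well. Among the 413 VIT_ features within 50 gene numbers of a member, members left out, 23 (5.57%) differed by at least 2 in the higher direction. Of all VIT_ features outside the blocks, members left out but these neighbours kept, 0.954% did. Limma called 39 of the 311 neighbours tested higher (12.5%), against 2.80% in that wider set, and 10 lower (3.22%), against 3.81%. Neighbours of members that lie outside runs gave a like share, with 31 of 234 called higher (13.2%). The median difference of the neighbours tested was 0.03, against -0.05. These shares come from the same contrast as the rule and carry no test.

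The remaining runs held 2 members each. They were VIT_00s0301g00150 with VIT_00s0301g00160, VIT_03s0063g00700 with VIT_03s0063g00720, VIT_05s0094g01230 with VIT_05s0094g01300, and VIT_08s0040g00940 with VIT_08s0040g00960, all named after their values were seen except VIT_05s0094g01300. That gene is annotated as a polygalacturonase of family GH28, which cuts the pectin backbone of cell walls. It gave -5.34, -3.83 and -4.28 on the OX.NAC61 arrays, against -9.26, -6.32 and -8.27 on the control arrays, a bound of 4.36-fold. The groups did not overlap, but control replicate 2 stood within 1 log2 unit of OX.NAC61 replicate 1.

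An annotation was at hand for 13 members (21.7%), against 18.3% of VIT_ features, so the roles below cover a minority. Oxidoreductases had 6 members, and were also the largest group among the other annotated genes, with 407 against 364 for transport, the next in size. The 6 were the SRG1 locus, the sinapyl alcohol dehydrogenase, PrxIII01b, both carbohydrate oxidases and a cytochrome P450. The P450, VIT_16s0050g00480, is annotated as CYP715A1 and gave -4.56, -5.49 and -5.86 on the OX.NAC61 arrays, against -8.21, -8.69 and -7.54 on the control arrays, a bound of 2.65-fold. Cytochromes P450 insert oxygen into hormones and secondary metabolites. Other annotated oxidoreductases, from lists that the study made without these arrays, were called higher in 51 of 386 cases and lower in 21.

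The other annotated members had 1 representative each. VIT_03s0063g00460 is VvERF117, a transcription factor of the AP2/ERF family, which includes regulators of ethylene and stress responses. It gave -5.36, -5.06 and -5.98 on the OX.NAC61 arrays, against -8.13, -7.31 and -7.79 on the control arrays, a bound of 2.38-fold. Other annotated transcription factors were called higher in 26 of 189 cases and lower in 7. VIT_12s0059g02620 is annotated as receptor protein kinase RK20-1, a membrane protein that relays signals. It gave -5.75, -6.03 and -5.79 on the OX.NAC61 arrays, against -8.60, -7.43 and -8.23 on the control arrays, and its OX.NAC61 values lay within 0.28 of each other. Other annotated kinases and receptors were called higher in 7 of 200 cases and lower in 1. VIT_14s0066g01420 is SWEET4, annotated in the nodulin MtN3 family, whose proteins carry sugars across membranes. It gave -4.97, -5.81 and -6.24 on the OX.NAC61 arrays, against -9.49, -8.83 and -8.40 on the control arrays, with OX.NAC61 replicate 1 highest. Other annotated transport genes were called higher in 20 of 330 cases and lower in 17.

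Among annotated cell wall genes, to which the polygalacturonase belongs, 2 of 49 others were called higher and 0 lower. Among annotated defence genes, to which the germin-like protein belongs, 13 of 55 others were called higher and 0 lower. No member fell into the groups of transferases, heat and water stress, hormones or protein turnover, as formed by words in the annotation. In these groups 9 of 82, 1 of 8, 6 of 106 and 9 of 115 annotated genes were called higher, and 1, 0, 2 and 5 lower. These annotated genes come from lists of NAC61 co-expression and binding, so their shares do not stand for whole families. Of the members with an annotation, 2 fell into no group, and both are named after their values were seen. VIT_12s0055g00920, an aspartate aminotransferase, which moves amino groups between aspartate and glutamate, gave -5.27, -5.47 and -4.07 in OX.NAC61 leaves and -8.32, -7.62 and -7.77 in control leaves. Its name is that of a transferase, but the words used to form the groups did not place it there. VIT_10s0116g00710, the beta subunit of tryptophan synthase, which makes tryptophan from indole and serine, gave -4.93, -6.90 and -6.45 in OX.NAC61 leaves and -9.24, -8.48 and -7.98 in control leaves.

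The study's list of genes whose expression follows NAC61 in other data sets held 4 members, all from its tissue-independent part. They were VIT_10s0003g05550, SWEET4, CYP715A1 and VIT_15s0048g02640, and the carbohydrate oxidase and CYP715A1 were also on the berry list. VIT_15s0048g02640 has no annotation and gave -3.38, -5.36 and -4.60 on the OX.NAC61 arrays, against -8.47, -8.81 and -8.48 on the control arrays, a bound of 4.81-fold. The members on the list made up 6.67% of all members, against 2.73% of VIT_ features, and 0.495% of the listed genes on the array. The leaf list held 0 members, against 1.43% of VIT_ features. Of the 198 features with the same detection and a smaller difference, 5 (2.53%) were on any list. With 4 genes these shares are coarse, and no test was made.

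Members also varied more between OX.NAC61 plants than most features did. Their SD over the OX.NAC61 arrays had a median of 0.75, against 0.25 over all features that passed the filter. Their OX.NAC61 means were also lower, with a median of -5.40, against -1.58, and the part of dim signal in the spread was not tested. The range over the OX.NAC61 arrays was at least 2 for 12 members and under 0.5 for 6. The steadiest was VIT_13s0067g00680, which gave -5.72, -5.73 and -5.86 on the OX.NAC61 arrays, against -7.75, -8.37 and -8.41 on the control arrays. VIT_12s0034g01960 gave -5.88, -5.83 and -5.65 on the OX.NAC61 arrays, against -7.86, -7.24 and -8.39 on the control arrays. With VIT_12s0059g02620 these had the 3 smallest ranges, and all had bounds under 2-fold.

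In most members the order of the OX.NAC61 plants was not that of NAC61 itself. OX.NAC61 replicate 1 was highest for 29 members, replicate 3 for 19 and replicate 2 for 12, while replicate 2 was lowest for 33. Among all features that passed the filter, replicate 1 was highest in 40.5%, replicate 3 in 30.3% and replicate 2 in 29.2%, and replicate 2 was lowest in 36.9%. NAC61 ran in the order of replicates 1, 2 and 3, low to high, and 5 members had that order. The order of replicates 3, 1 and 2 also had 5 members, and the other orders had 7, 10, 14 and 19. With 3 plants no relation between NAC61 level and member level can be tested.

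Scan day was the batch that most nearly followed the groups. By the headers, OX.NAC61 replicate 1 was scanned together with all controls on day 1, whereas the other OX.NAC61 arrays followed on day 2. Within day 1, OX.NAC61 replicate 1 exceeded the control mean by at least 1 log2 unit for all 60 members and by at least 2 for 51, with a median of 3.29. For OX.NAC61 replicates 2 and 3, scanned on a day with no control array, the mean excess had a median of 2.87 and was at least 2 for 55 members. The rule asked for detection on each OX.NAC61 array and for a high OX.NAC61 mean, so these excesses were largely fixed by the choice of members, and the part of scan day in them was not tested. The headers also record slides, although OX.NAC61 replicates 1 and 3 carry the same slide and position, so that the record may be wrong. On recorded slide 2, OX.NAC61 replicate 2 exceeded control replicate 2 with a median of 2.64, and by at least 2 for 42 members. On recorded slide 1, the mean of OX.NAC61 replicates 1 and 3 exceeded control replicate 3 with a median of 3.02, and by at least 2 for 52 members.

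**Figure D5:**
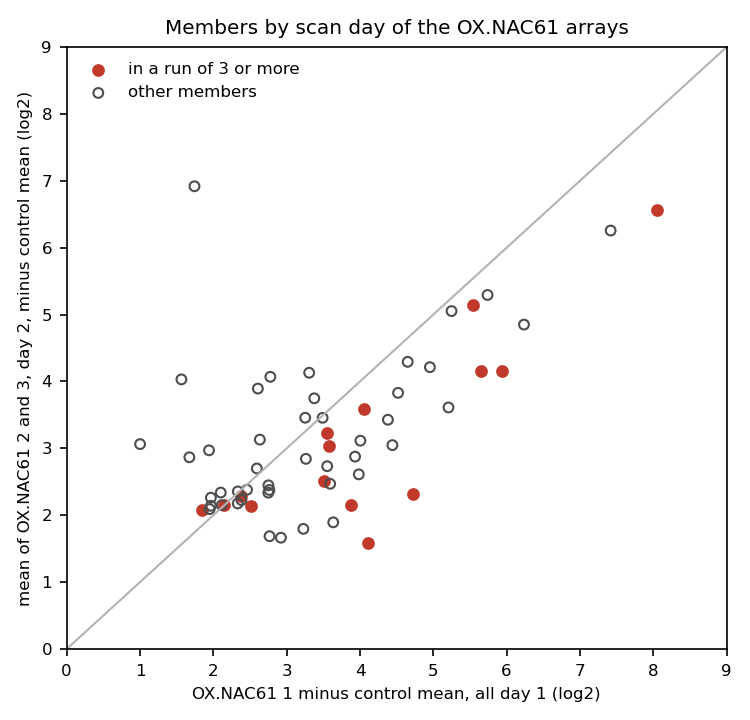
Excess over the control mean of OX.NAC61 replicate 1, scanned on the same day as the controls (horizontal axis, log2), and of the mean of OX.NAC61 replicates 2 and 3, scanned on another day (vertical axis, log2), for each member, with runs of 3 or more members filled. All points lie to the right of 1 on the horizontal axis, and the point farthest above the diagonal is VIT_17s0000g04600.

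The threshold of 2 cut through a continuous range. Just inside it lay VIT_14s0006g02350 (2.01), VIT_12s0034g01960 (2.04) and VIT_18s0075g01090 (2.05). Just outside lay VIT_14s0030g01940 (1.99), VIT_00s0371g00050 (1.99) and VIT_03s0088g00690 (1.97). VIT_14s0006g02350 gave -6.74, -7.20 and -5.81 in OX.NAC61 leaves and -8.60, -8.78 and -8.39 in control leaves, and VIT_14s0030g01940 gave -6.95, -6.38 and -6.79 in OX.NAC61 leaves and -9.24, -8.63 and -8.22 in control leaves, so the genes on both sides of the threshold look alike. VIT_18s0075g01090 gave -5.08, -6.13 and -6.19 in OX.NAC61 leaves and -8.84, -7.76 and -6.94 in control leaves, the widest control spread of the 3 just inside.

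No member was among the 26157 features in the deposited table of log2 values, each of which was well above background on at least 4 arrays. A gene detected in 3 plants of 1 group alone falls short of that number by construction.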

How the data were processed

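RNA of 3 OX.NAC61 and 3 control plants was hybridised to one-colour Agilent 44K arrays, 1 plant per array. Per the file headers, the deposited intensity values were made with Feature Extraction 10.5.1.1, the Agilent software, by subtracting background within each array, without normalisation between arrays. The authors also deposited log2 values made with limma, for 26157 features.

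Here log2 processed intensity was scaled by subtracting the 75th percentile over all non-control spots of each array. Each of the 34369 features had 1 probe. The filter kept the 27053 features with 3 or more arrays well above background. Outlier spots, by either flag of the software, were treated as missing, and no member had one. The two-sided comparison used lmFit and eBayes of limma 3.58.1 (R 4.3.3) without covariates, with Benjamini-Hochberg adjustment over 27052 features. A call needed an adjusted p below 0.1 and a fold above 1.5. The script was tested on simulated data. Precision was limited by 3 arrays per group.

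The members and the lists were chosen with earlier results of these data known. The genes named are NAC61, the 10 members with the highest bound, members in runs of 3 or more, up to 4 members per role group, members on a co-expression list, 3 features on each side of the threshold, and the 3 smallest and 3 largest OX.NAC61 ranges. Annotations and co-expression lists came from the study's supplement, and roles were assigned by words in the annotation. The array names its loci by an older genome annotation that the reference table used here does not hold. Alternatives changed the background correction, normalisation, filter, scan day, slide or replicate block, variance model, thresholds, detection flag, floor and run distance, or left out each array in turn. The main comparison did not use the replicate numbers to pair the arrays. The correlations of same-numbered arrays' deviations were 0.21, -0.04 and 0.21, but differently numbered arrays were not compared, so pairing was not decided.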

Additional observations from a re-analysis of the deposited data

Results flagged for a closer look

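Outside the rule, 19 further features showed the same detection, in every OX.NAC61 plant and in no control plant, with a difference of at least 2. Of these, 15 belong to the left-out block VIT_18s0001g and 4 carry no VIT_ identifier. The highest bound among the 19 was 58.2-fold, for TC160931, which gave scaled log2 signals of 2.42, -0.72 and -4.24 on the OX.NAC61 arrays and -8.64, -8.57 and -8.04 on the control arrays. These features were singled out after their values were seen.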

How the results depend on the processing

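The count of members depended on how detection and background were handled. It was 128 with a difference of at least 1 and 30 with at least 3, 12 with the weaker detection flag on all arrays (10 of them members), 0 after normexp, 2 after normexp with outlying local backgrounds replaced (chosen after seeing the data), and 64 to 151 when 1 array was left out, highest without control replicate 1. Members called numbered 0 after normexp (0 at an unadjusted p under 0.05), 9 with replaced backgrounds, 4 with scan day and 34 with recorded slide as a block, and 15 to 55 with 1 array left out, with 15 without control replicate 2, 27 without control replicate 3 and 34 without OX.NAC61 replicate 3. With the replicate block 46 members and 1020 features were called. With replaced backgrounds 20.98% of all features were called, against 9 of the 60 members, and these 9 were not split by direction. Over all features, 0.0481% were called with scan day and 2.21% with recorded slide as a block. With 1 array left out this share ran between 0.262%, without control replicate 2, and 11.98%, without OX.NAC61 replicate 1. The median log2 bound of 1.31 became 0.53 with the 5th percentile as floor, and ran between 1.02 and 1.56 with 1 array left out.

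Calls over all features, 1851, became 0 after normexp (3335 at an unadjusted p under 0.05), 5675 with replaced backgrounds (823 higher and 4852 lower), 681 with spike-in scaling, 13 with scan day and 599 with slide as a block, 656 at an adjusted p below 0.05 and 1157 with the deposited log2 values, which hold no member. With 1 array left out they ran between 71, without control replicate 2, and 3241, without OX.NAC61 replicate 1. Without control replicate 3 there were 219 calls over all features, and without OX.NAC61 replicate 3 there were 334. The setting with 3241 calls was also the one in which 55 members were called. The members' median difference was -1.22 after normexp, with 9 higher, and 0.07 with replaced backgrounds, with 33 higher. The offset of 50 exceeded 84 of the 180 OX.NAC61 spots of members, and its part in these values was not tested. Quantile normalisation and the other run distances changed no count by over 1.5 times. Member spots had a median processed signal of 54.9 on OX.NAC61 arrays and 3.20 on control arrays, which limits their precision. The cause of the changes with processing was not tested.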
